A study of Mus musculus with 4 samples.

Results

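Among the regions of open chromatin that were called as a peak in every library, 124 lost the most signal between cells labelled Gel and cells labelled CuNZ@Gel. They were taken from 80929 regions, made by merging the peaks of the 4 libraries where they touched or lay at most 1 base apart. Of these, 32082 regions held a peak in all 4 libraries. A region became a member when its mean deposited log2 value in CuNZ@Gel was lower than that in Gel by at least 1.25. The members were thus chosen by the difference between the group means, and the sizes of their falls are given as a description, without a test.

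The assay was ATAC-seq, which uses a transposase to cut open DNA and leave sequencing adapters there. It was run on RAW264.7, a macrophage-like mouse line derived from a virus-induced tumour. The groups were Gel and CuNZ@Gel, which the series title calls a nanozyme hydrogel, with 2 libraries each (replicates 1 and 2). Per the labels, wells of 1000000 attached cells were kept for 48 h after treatment. All 4 libraries carry 1 treatment text, which mentions CuNZ@Gel alone, and the Gel group is known from its titles, which do not say what was added. No label says whether replicates were separate cultures, so the spread between them may be technical. In such pooled cells, fewer cells with an open site and less opening per cell cannot be told apart.

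A distal enhancer or a promoter that is free of nucleosomes gives many transposase cuts, and the number of cuts falls when nucleosomes take the place of bound factors. Immediate early genes such as Fos, Ier2 and the Nr4a genes keep open promoters and enhancers that respond within minutes to growth factors, calcium, cyclic AMP or bacterial products. In macrophages their products, together with RNA-decay proteins of the Btg and Zfp36 families, shape the start and the end of an inflammatory response.

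The authors named each region by its nearest gene, and the 124 members lay nearest to 116 genes. The sequences of the member regions are not shown because no genome of their build, GRCm39, was used. Of those genes, 80 have a promoter window in the RefSeq table for GRCm38.p6, which runs from 250 bases before the gene's start and is 300 bases long. The last 150 bases before the start were read for 9 genes whose regions are described below, and are printed for the 5 that carry either of 2 motifs. Those of Klf2, Klf4, Btg2 and Id3 carry neither. Capitals mark TGACG on either strand (written CGTCA when on the opposite strand), the core of the cyclic AMP response element, or TGANTCA, the AP-1 motif bound by Fos and Jun proteins. All run 5′ to 3′ on the gene's own strand.
Fos, chr12:85473740-85473889, plus strand: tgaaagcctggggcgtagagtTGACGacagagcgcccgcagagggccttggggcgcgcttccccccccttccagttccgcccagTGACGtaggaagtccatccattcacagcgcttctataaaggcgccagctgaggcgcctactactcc
Nr4a1, chr15:101266696-101266845, plus strand: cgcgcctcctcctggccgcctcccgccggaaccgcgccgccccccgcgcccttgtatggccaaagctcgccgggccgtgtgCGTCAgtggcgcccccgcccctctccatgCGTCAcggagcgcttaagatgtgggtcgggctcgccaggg
Nr4a2, chr2:57124004-57124153, minus strand: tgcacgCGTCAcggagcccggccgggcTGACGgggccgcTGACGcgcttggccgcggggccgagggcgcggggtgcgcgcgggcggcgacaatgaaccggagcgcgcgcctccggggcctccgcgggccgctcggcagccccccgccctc
Btg1, chr10:96616851-96617000, plus strand: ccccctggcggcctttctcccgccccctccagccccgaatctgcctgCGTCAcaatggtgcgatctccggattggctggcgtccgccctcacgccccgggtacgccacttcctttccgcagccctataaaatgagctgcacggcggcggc
Zfp36l1, chr12:80113014-80113163, minus strand: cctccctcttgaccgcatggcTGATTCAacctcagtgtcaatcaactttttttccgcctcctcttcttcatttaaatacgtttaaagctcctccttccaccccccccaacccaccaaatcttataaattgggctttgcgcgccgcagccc

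In these stretches the core begins 129 and 66 bases before the start of Fos, 69 and 40 bases before that of Nr4a1, and 144, 123 and 111 bases before that of Nr4a2. Over the 300-base windows, 32 of the 80 genes of members (40%) held the core TGACG on either strand. The share was 27.1% of 12465 genes nearest to any region with a peak in all 4 libraries and 21.0% of the 27025 genes with a window. This core was added to the motifs after the data were seen. The full 8-base element TGACGTCA was in 4 of the 80 windows (5%), against 2.69% and 1.88%. The AP-1 motif TGANTCA was in 7 (8.75%), against 6.71% and 7.93%. GAGGAAGT, a motif of the macrophage factor PU.1, was in 6 (7.50%), against 3.21% and 3.28%. CCGGAAGT, an ETS motif, was in 1 (1.25%), against 6.28% and 4.00%. The GC box GGGCGG was in 43 (53.8%), against 51.2% and 35.9%. Some of these motifs overlap, and every TGACGTCA also counts as a core. The median GC content of the windows was 56.2% for genes of members and 57.7% for genes of all shared regions. A match describes the letters only, and whether the member regions overlap these windows was not tested, because the builds differ.

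The deposited values were read as log2(RPM + 1), where RPM counts reads per 1000000 effective reads of the library. All 124 members were lower in CuNZ@Gel, by between 1.25 and 2.18 on that scale, with a median difference of -1.38. Their median RPM was 50.4 and 50.7 in the Gel libraries and 17.2 and 17.8 in the CuNZ@Gel libraries. The 31958 other regions with a peak in all 4 libraries had a median difference of -0.21. Of the members, 36 differed by -1.5 or less and 1 by -2 or less. In 69 of the 124, each of the 4 differences between a single CuNZ@Gel and a single Gel library was at or below the threshold.

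All 124 passed the filter on low values, and limma, fitted over the 77014 regions that passed it, called all 124 lower at an adjusted p below 0.05. Of all regions tested 21.9% were called lower, and of those with a peak in all 4 libraries 42.1%. In all 124 both CuNZ@Gel values lay below both Gel values, which 53.5% of the regions with a peak in all 4 libraries also showed. Of the 8384 other shared regions within the members' interquartile range of Gel level, 7487 showed it and 6930 were called lower. Since the rule used this contrast, nothing is read from these counts, nor from the separation of the groups in single members described below.

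The median absolute difference between the Gel replicates was 0.077 log2 over the members, 0.11 over the other shared regions and 0.079 over those of like Gel level. Between the CuNZ@Gel replicates it was 0.13 over the members, 0.14 over the others and 0.11 over those of like level. Members were thus about as far apart between replicates as other regions of their level. CuNZ@Gel replicate 1 was the higher of its group in 43 of the 124 members and Gel replicate 1 in 64. The shallowest member, near Lrrc7, held 174 and 157 reads in Gel and 25 and 46 in CuNZ@Gel, where counting error alone is 20% and 14.7% of the value. The deepest, near Btg2, held 3720, 3555, 667 and 978 reads, with a counting error of at most 3.87%.

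The whole data set differed between the groups in depth and in background. Reads in regions were 18843540 and 17914906 in Gel and 7440949 and 10236692 in CuNZ@Gel. Reads in regions per unit of genome background pileup, recovered from the deposited fold enrichments, were, in units of 1000000, 18.8 and 18.6 in Gel and 6.37 and 8.53 in CuNZ@Gel. The change between groups also ran with the level of a region. In the lowest 10% of shared regions by Gel level the median difference was 0.70, and in the highest 10% it was -0.72. The part of these differences between libraries in the falls of the members was not tested. Macrophage markers had a region for 11 of 12 genes, with a summed RPM of 1442 and 1455 in Gel and 1129 and 1141 in CuNZ@Gel. The sums for lymphocyte (7 of 9 genes with a region), fibroblast (4 of 7), epithelial (3 of 6) and endothelial (5 of 5) markers ran from 12.1 to 158, and Cd3g, Cd79a, Col1a2, Dcn, Lum, Krt5, Krt14 and Krt18 had no region.

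Members sat at the upper part of the level range. Their mean Gel log2 value ran from 3.45 to 7.78 with a median of 5.69, against a median of 4.21 for the other shared regions. The lowest 3 deciles of shared regions by Gel level held no member and the fourth held 1. The highest held 37, which is 1.15% of that decile. The rule itself limits members at low levels, because a region also needs a peak in the CuNZ@Gel libraries. The lowest decile ended at a Gel log2 value of 2.57, and no shared region had a mean CuNZ@Gel value below 1.41. A fall to the threshold from that decile would end lower still, so nothing is read from its lack of members. How far this limit reaches into higher deciles was not tested. Among 8384 other shared regions within the members' interquartile range of Gel level, the median difference was -0.53. The rule sets the members apart from these regions by construction, so this is no test of a difference beyond level.

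Cyclic loess, a normalization that removes the trend of change with level, made the falls of most members smaller. The median of the members became -1.09 (range -1.98 to -0.48), and that of the other shared regions became 0.00. Under it, limma called all 124 lower, against 16.3% of the shared regions. A fall of at least 1.25 remained in 31 of the 124. The plot of deposited against loess values shows that the members with the highest Gel level moved most.

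**Figure D1:**
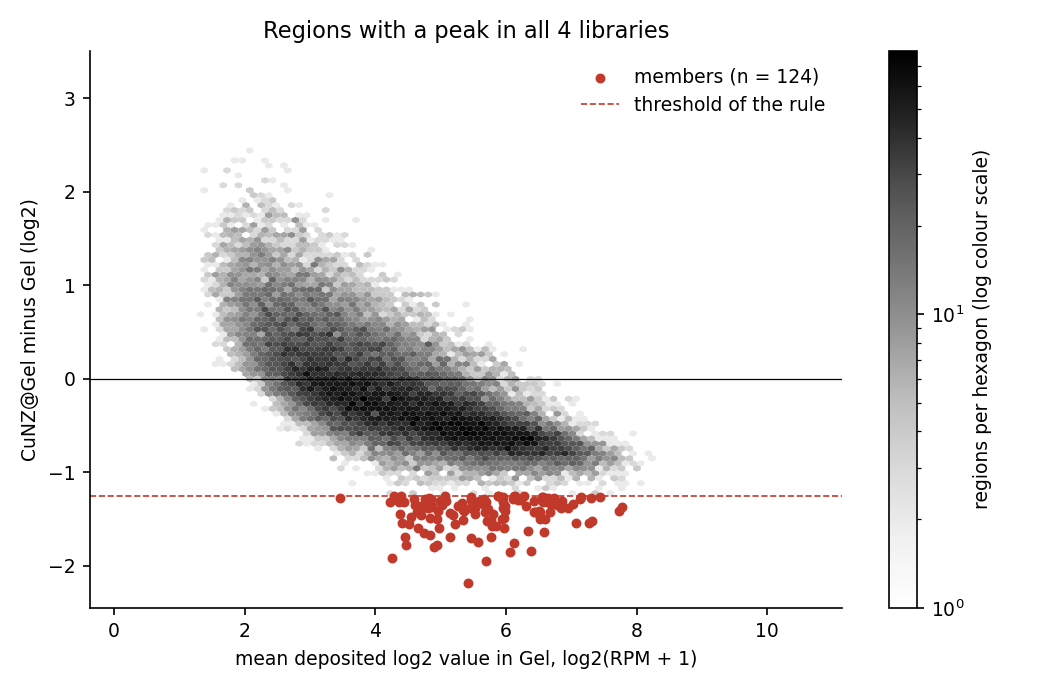
Difference between the groups (vertical axis, CuNZ@Gel minus Gel, log2) against the mean deposited log2 value in Gel (horizontal axis) for regions with a peak in all 4 libraries. Grey hexagons count regions on a log colour scale, red points are the 124 members and the dashed line is the threshold of the rule. Differences turn more negative with level, and members lie at Gel values from 3.45 to 7.78.

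**Figure D2:**
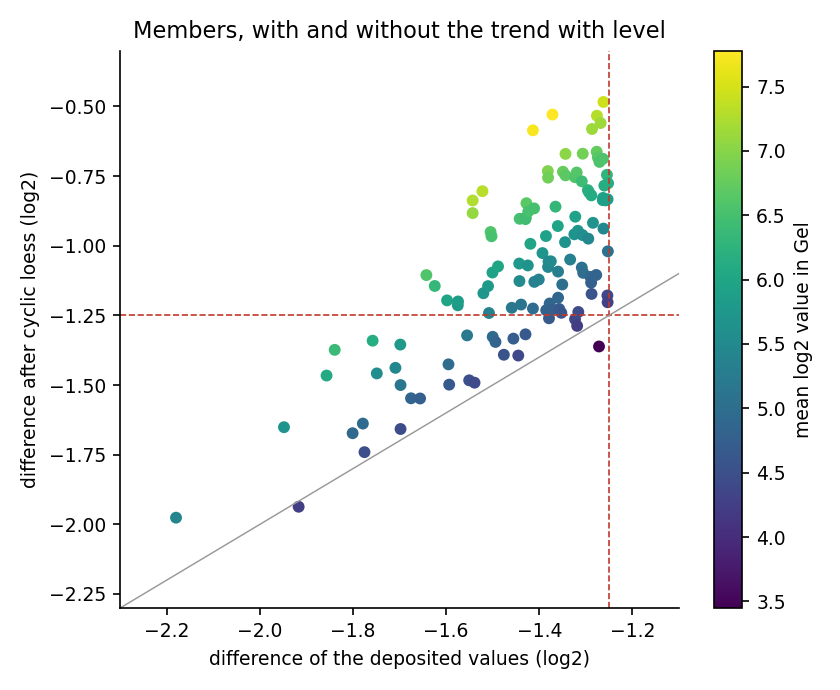
Difference of each member in the deposited values (horizontal axis, log2) and after cyclic loess (vertical axis, log2), coloured by its mean Gel log2 value. Dashed lines mark the threshold of the rule and the grey line marks equal values. Of the 124 points 31 stay at or below the threshold after loess.

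Immediate early and signal-induced transcription factors held the highest share of members among 14 gene lists. Of 80 shared regions nearest to genes of that list, 8 were members (10.0%), against 0.387% of all shared regions. They lay near Fos (3 regions), Ier2, Klf2, Klf4, Nr4a1 and Nr4a2. Over the 80 regions limma called 63 lower (78.8%, against 42.1% of all shared regions) and 4 higher, with a median difference of -0.85, against a median of -0.22 for all shared regions tested. The housekeeping list had a like share, with 79.3% called lower. After cyclic loess the list's median was -0.24, with 43 called lower and 7 higher, where 16.3% of all shared regions were called lower. In the deposited values the share called lower rose with Gel level, from 0% in the lowest decile of shared regions to 98.0% in the highest. No list here or below was matched for level.

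Fos, the AP-1 subunit, was the gene with the most members near it. The first region, chr12:85515289-85516078, had 81.3 and 77.7 RPM in Gel and 21.9 and 28.7 in CuNZ@Gel, a difference of -1.62 (SE 0.0998). The second, chr12:85518760-85519477, had 93.3 and 92.1 RPM in Gel and 36.9 and 38.8 in CuNZ@Gel, a difference of -1.27 (SE 0.083). The third, chr12:85520170-85521333, had 161 and 154 RPM in Gel and 56.4 and 52.2 in CuNZ@Gel, a difference of -1.52 (SE 0.071). All 3 lie within 6.05 kb, and in each the 2 groups stay apart by far more than their replicates, as the rule favours. The other 5 regions nearest to Fos, 14.6 to 26 kb from the middle of the members, were also called lower, by between 0.24 and 1.01. That call was made for 21.9% of all regions tested. Among shared regions it rose with Gel level, to 89.9% and 98.0% in deciles 9 and 10.

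The other members of the list encode regulators that are switched on by many signals. Ier2, a small nuclear protein, had a region at chr8:85388186-85389741 with 217 and 208 RPM in Gel and 78.2 and 79.7 in CuNZ@Gel, a difference of -1.41. Nr4a1, an orphan nuclear receptor, had one at chr15:101164000-101165130 with 62.2 and 63.0 RPM against 22.7 and 22.9, a difference of -1.42. Klf2, a zinc finger factor known to restrain inflammatory genes in myeloid cells, had one at chr8:73072502-73073483 with 161 and 151 RPM against 61.2 and 66.6, a difference of -1.28. In these 3 regions the replicates of each group lie close together and the groups do not overlap. Both CuNZ@Gel values lay below both Gel values in 53.5% of all shared regions. It was so in 7487 of the 8384 other shared regions within the members' interquartile range of Gel level. Nr4a2 and Klf4, named after their values were seen, had 60.7 and 63.8 against 23.0 and 24.3 RPM, and 98.9 and 113 against 38.3 and 48.4 RPM.

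The same genes held regions that changed less. All 5 regions near Nr4a1 and all 4 near Ier2 were called lower, with the non-members at -0.96 to -0.33 and at -1.03 to -0.44. Near Klf2, 3 of 6 regions were called lower and 1 higher. The share called lower over all regions tested was 21.9%, and among shared regions it rose with Gel level, as given above. The other genes of the Fos and Jun families had no member. Junb reached -1.23 with 4 of 4 regions called lower, Jun stood at -1.09 in its 1 region and Fosb reached -1.14 with 4 of 5 called lower. Jund reached -1.11 and Fosl2 -0.82, each with 1 of 2 regions called lower. Fosl1 went the other way, with 3 of 3 regions called higher by at least 0.90.

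mRNA decay and antiproliferative genes came next, with 3 members among 42 shared regions (7.14%). Btg2, a protein that brings the CCR4-NOT deadenylase to mRNAs, had the member with the highest Gel value, at chr1:134005225-134007418. It held 217 and 220.0 RPM in Gel and 80.9 and 86.9 in CuNZ@Gel, a difference of -1.37 (SE 0.061). Its relative Btg1 had a region at chr10:96452316-96453585 with 167 and 179 RPM against 71.1 and 72.0, a difference of -1.26. Zfp36l1, which binds AU-rich elements and speeds the decay of the mRNA, had one at chr12:80159344-80160443 with 97.8 and 92.6 RPM against 29.0 and 30.6, a difference of -1.64. All 3 keep the groups well apart, as the rule favours, and Zfp36l1 shows the deepest fall of them. Over the 42 regions 29 were called lower (69.0%, against 42.1% of all shared regions) and 7 higher. The region near Btg1 was the only one of 6 near that gene to be called lower, and 2 of the others were called higher.

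The other lists with members held 1 or 2 each. Id3, a helix-loop-helix protein without a DNA-binding basic part, gave the 1 member among 22 shared regions of its list, at chr4:135870516-135871676, with 136 and 123 RPM in Gel and 47.6 and 53.3 in CuNZ@Gel. Sgk1, a kinase induced by serum and glucocorticoids, had one at chr10:21822561-21823280 with 27.6 and 24.02 RPM against 8.85 and 6.31. Trib3, a pseudokinase induced in the integrated stress response, had one at chr2:152185415-152186729 with 87.5 and 83.2 RPM against 36.2 and 31.6. The 2 feedback members, Sgk1 and Trib3, stood among 101 shared regions, of which 47 were called lower and 30 higher. That share of lower calls, 46.5%, is near the 42.1% of all shared regions. Trib3 was also the 1 member among 34 shared regions of the integrated stress and unfolded protein response list. There 26 were called lower (76.5%) and 3 higher. The list of Id3 had 13 lower (59.1%) and 2 higher.

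Fth1, the heavy chain of the iron store ferritin, was the member from the NRF2 and oxidative stress list (1 of 59). Its region, chr19:9959797-9960701, had 101 and 93.8 RPM in Gel and 37.6 and 39.4 in CuNZ@Gel, a difference of -1.32. Bcl2l11, the pro-apoptotic protein BIM, was that from the cell cycle and p53 list (1 of 80), with 145 and 136 RPM against 61.0 and 54.5 at chr2:127967522-127968334. The groups are apart in both, as the rule favours. These lists hold regions of both directions, with 29 lower (49.2%) and 12 higher in the first and 47 (58.8%) and 10 in the second. Over all shared regions 42.1% were called lower. Acot2, a mitochondrial acyl-CoA thioesterase, gave the member of the lipid list (1 of 70), with 60.5 and 63.4 RPM against 21.7 and 21.1.

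No member lay near the inflammatory cytokines and chemokines (53 shared regions), the NF-kB, IRF and STAT factors (56), the housekeeping controls (29), the chromatin regulators (101) or the hypoxia and glycolysis genes (52). The cytokine list had 14 regions called lower (26.4%, against 42.1% of all shared regions) and 13 higher, with a median of -0.10. The housekeeping list had 23 lower (79.3%) and 3 higher, with a median of -0.65. Over the 32079 shared regions tested, 5981 were called higher. Regions near listed genes made up 18 of the 124 members, and 106 lay near none of them. These lists were written with earlier results of these data known, so their counts describe the members and support nothing further.

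**Figure D3:**
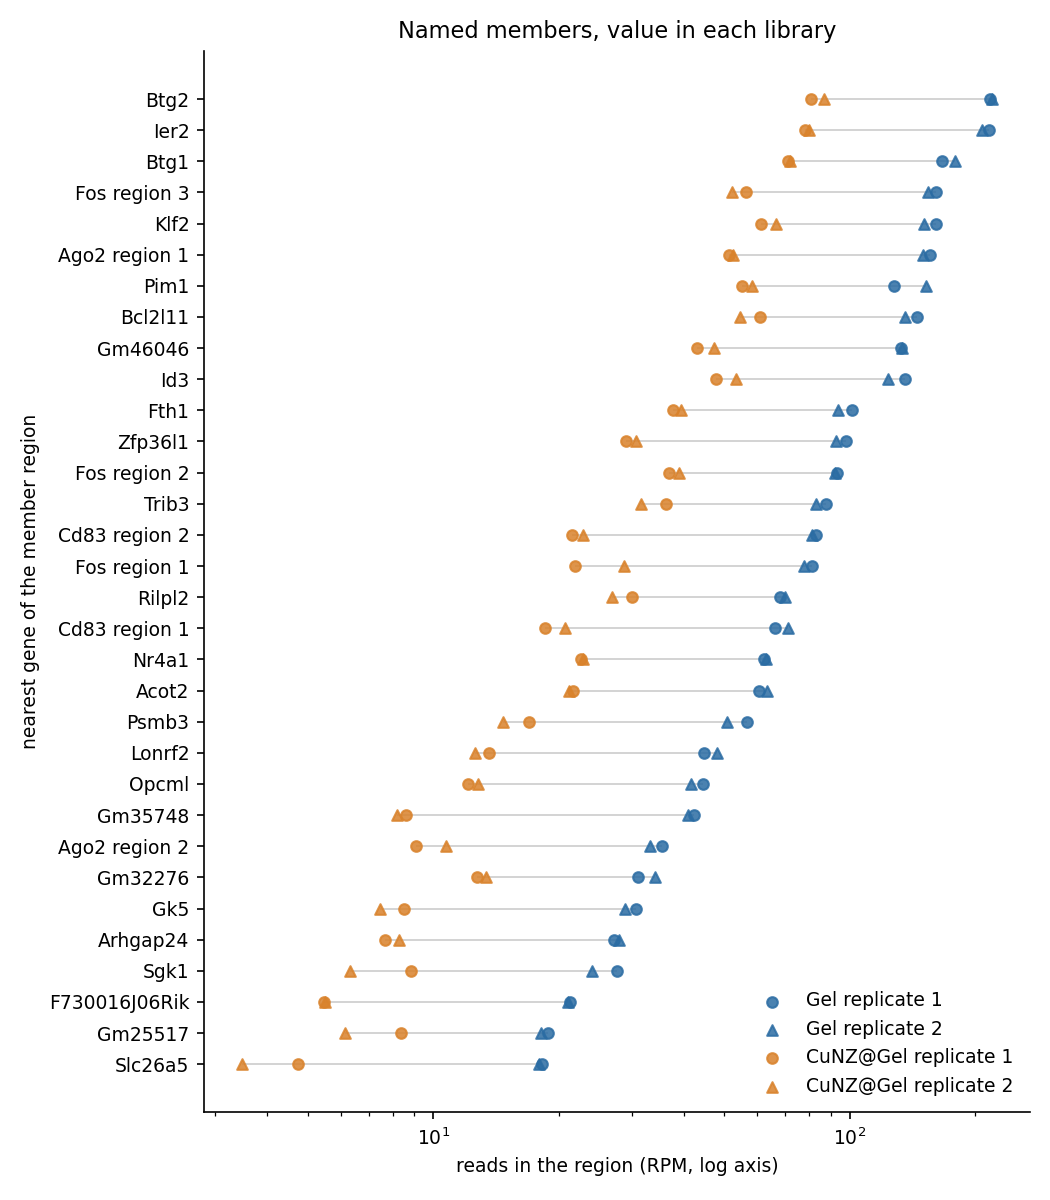
Reads in each of 32 named member regions (horizontal axis, RPM, log scale), labelled by nearest gene and ordered by the mean of Gel. Blue marks are Gel and orange marks CuNZ@Gel, with circles for replicate 1 and triangles for replicate 2. In each of the 32 regions both orange marks lie to the left of both blue marks. The values lie in that order in 53.5% of all regions with a peak in all 4 libraries. They do so in 7487 of the 8384 others within the members' interquartile range of Gel level.

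The deepest falls lay near genes outside these lists. The member with the largest fall was near Gm35748, a long noncoding RNA per the RefSeq table, at chr2:78890449-78891215. It had 42.3 and 40.8 RPM in Gel and 8.61 and 8.18 in CuNZ@Gel, 4.53-fold lower on the log2(RPM + 1) scale (difference -2.18, SE 0.129). In both groups the replicates lie close together, far from those of the other group, as the rule favours. Slc26a5, the motor protein prestin of outer hair cells, came next among genes with a symbol of their own, with 18.3 and 17.9 RPM against 4.73 and 3.47 at chr5:22114353-22115357 (difference -1.92). This is a region of few reads, and after cyclic loess its difference was -1.94.

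Cd83, a surface glycoprotein of activated antigen-presenting cells, had 2 members. At chr13:43938303-43939151 the values were 83.0 and 81.1 RPM in Gel and 21.6 and 22.8 in CuNZ@Gel, a difference of -1.84 (SE 0.094). At chr13:43921025-43921729 they were 66.1 and 71.3 against 18.5 and 20.7, a difference of -1.76 (SE 0.101). In both, the groups are far apart beside the spread of their replicates, as the rule favours. Of the 2 regions between them, 1 had 65.6 and 65.2 RPM in Gel and 43.8 and 46.0 in CuNZ@Gel, a difference of -0.53. The other had 34.5 and 43.6 against 12.5 and 21.0, a difference of -1.21, and lacked a peak in 1 library. Of the 10 regions near Cd83, 9 were called lower, against 21.9% of all regions tested. That share is not matched for Gel level, with which it rises among shared regions.

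Ago2, the Argonaute protein that cuts target RNAs, also had 2 members. The one at chr15:73033787-73034958 had 156 and 149.8 RPM in Gel and 51.3 and 52.4 in CuNZ@Gel, a difference of -1.54. That at chr15:73048614-73049709 had 35.5 and 33.2 against 9.09 and 10.8, a difference of -1.70. The region near Ago2 with the most reads was not a member. It had 188 and 198 RPM in Gel, 117 and 109 in CuNZ@Gel and a difference of -0.76. Within this locus the largest falls were thus not at the region with the most reads, which is also the widest, at 2787 bases. The member at chr15:73033787-73034958 is 1172 bases wide, and reads are not compared per base here.

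The rest of the deepest named falls were near genes of varied roles, and their differences ran from -1.78 to -1.68. Gk5, of the glycerol kinase family, had 30.6 and 28.9 RPM in Gel and 8.49 and 7.46 in CuNZ@Gel. Lonrf2, a RING finger protein, had 44.8 and 48.0 against 13.6 and 12.6. Opcml, a cell adhesion molecule anchored in the membrane, had 44.4 and 41.6 against 12.1 and 12.8. Psmb3, a subunit of the proteasome core, had 56.6 and 50.7 against 17.0 and 14.7. Arhgap24 had 27.2 and 27.9 against 7.64 and 8.27. In none of these 5 did a CuNZ@Gel value exceed 17.0 RPM, and the groups do not overlap, as the rule favours.

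Among the strongest sites, Pim1, a serine/threonine kinase, had 128 and 153 RPM in Gel and 55.2 and 58.4 in CuNZ@Gel, with more spread between its Gel replicates than most. Gm46046, a long noncoding RNA that lies between Adgre5 and Adgrl1 in the RefSeq order of genes, had 133 and 134 RPM in Gel and 43.0 and 47.3 in CuNZ@Gel. Members near known macrophage genes, chosen after their values were seen, included Tlr2, the receptor for bacterial lipoproteins, with 57.7 and 66.4 RPM against 20.5 and 19.1. Cd74, the invariant chain of class II antigen presentation, had 115 and 112 against 42.0 and 44.0, and Ctsl, a lysosomal protease, had 121 and 123 against 48.4 and 44.2. Over the 14 regions nearest to Tlr2, the calls were 4 higher and 4 lower. Over all 77014 regions tested, they were 16314 higher and 16855 lower (21.9%).

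The threshold falls among regions of like values. Just inside were the regions near Gm25517 (-1.253), Gm32276 (-1.2525) and Rilpl2 (-1.252), and just outside were those near Il6 (-1.248), Cd276 (-1.2475) and Rgs2 (-1.2465). The region near Il6, the gene of the cytokine interleukin 6, had 22.6 and 24.3 RPM in Gel and 9.34 and 9.24 in CuNZ@Gel. At a threshold of -1 there would be 551 members. Of regions without a peak in all 4 libraries, 187 fell by at least 1.25, with a largest fall of 2.89. Of these, 184 had no peak in CuNZ@Gel replicate 1 and 125 had peaks only in both Gel lists. The requirement for a peak in every library thus leaves out more falls of that size than it keeps, from a larger pool. The shares were near each other, at 0.416% of 44935 regions tested without a peak in all 4 libraries and 0.387% of 32079 with one.

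Several members lay close together. Of the 124, 7 were within 10 kb of another member, 21 within 100 kb and 36 within 1000 kb. The widest group held 4 members across 168.6 kb of chromosome 2 (chr2:78890449-79059046), near Gm35748 and Gm35813, noncoding genes that lie between Ube2e3 and Itga4 in the RefSeq order. Besides the region with the largest fall, its members differed by -1.5, -1.59 and -1.5. Between them lay a region that rose, at chr2:79014273-79015145, from 3.50 and 4.08 RPM in Gel to 13.1 and 13.6 in CuNZ@Gel. Of the 15 tested regions in the locus 8 were called lower and 2 higher, where 21.9% of all regions tested were called lower. With members joined where they lay within 200 kb of the next, the other groups were the 3 near Fos and 10 pairs. Of the pairs, 4 were near 1 gene each (Nfe2l1, Cd83, Ago2 and Rilpl2), and the others were near Klf4 and Gm12506, Zfp36l1 and Gm36834, Pim1 and Gm36486, Gm41609 and Gm41610, St6gal1 and Gm30814, and Snora31 and Gm25517.

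**Figure D4:**
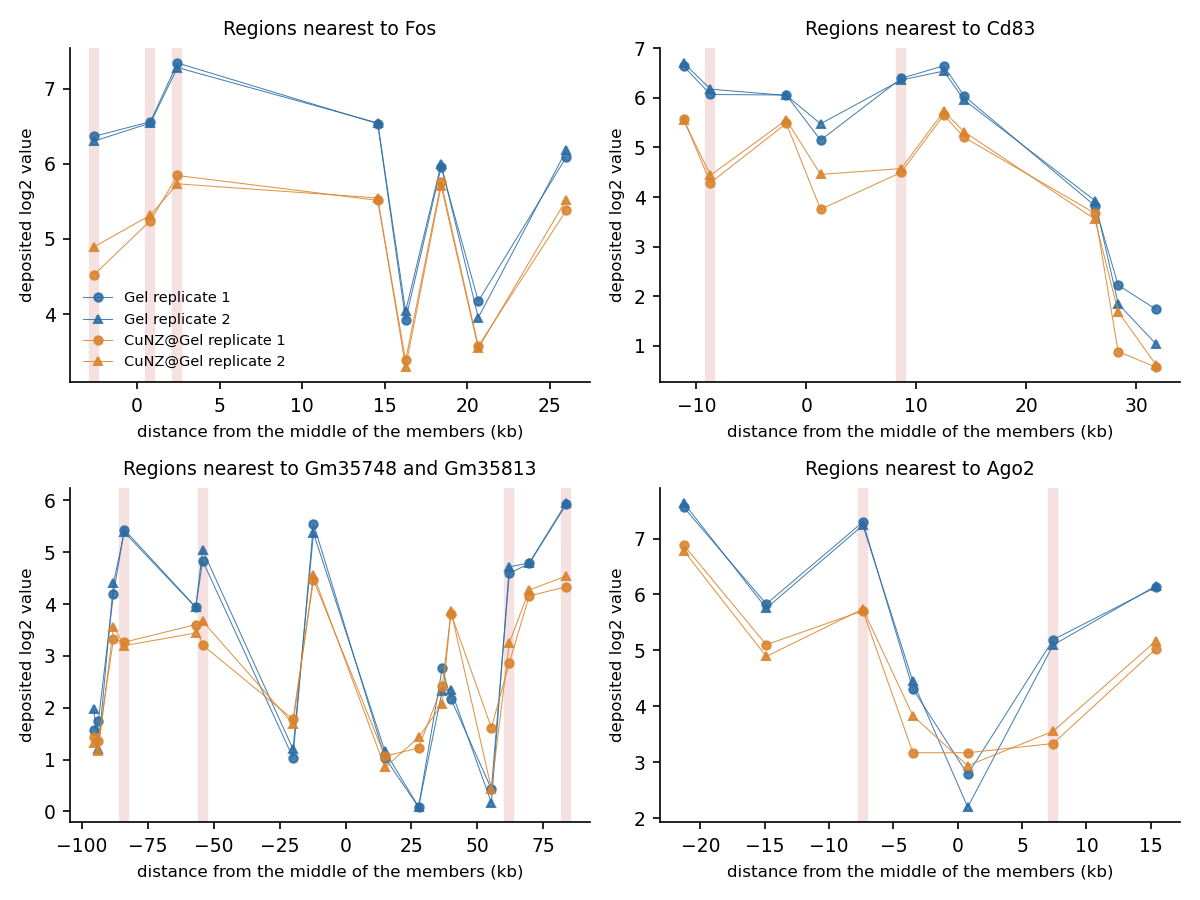
Deposited log2 values (vertical axis) of each region nearest to Fos, Cd83, Gm35748 and Gm35813, or Ago2, by distance from the middle of the members (horizontal axis, kb). Blue is Gel and orange CuNZ@Gel, circles and triangles are replicates 1 and 2, and pale red bands mark the members. The deepest falls in these 4 panels are at the members, and near Gm35748 and Gm35813 a region at 39.96 kb lies higher in CuNZ@Gel.

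Non-member regions near a member also tended to be lower. Of 77 tested regions within 5 kb of a member, 55 (71.4%) were called lower and 3 higher, with a median difference of -0.68. At 5 to 20 kb the median was -0.25 (38.2% lower), at 50 to 100 kb it was -0.11 (27.5%), and beyond 1000 kb it was 0.01 (21.2%). With regions that hold a peak in all 4 libraries the medians were -0.80 (n = 50), -0.42, -0.30 and -0.21 over the same distances. Those nearest regions also had a higher Gel level, with a median log2 of 5.42 against 4.19 beyond 1000 kb. After cyclic loess their median was -0.37, against 0.00 at the greatest distance. All these values come from the same 4 libraries as the rule and carry no test.

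**Figure D5:**
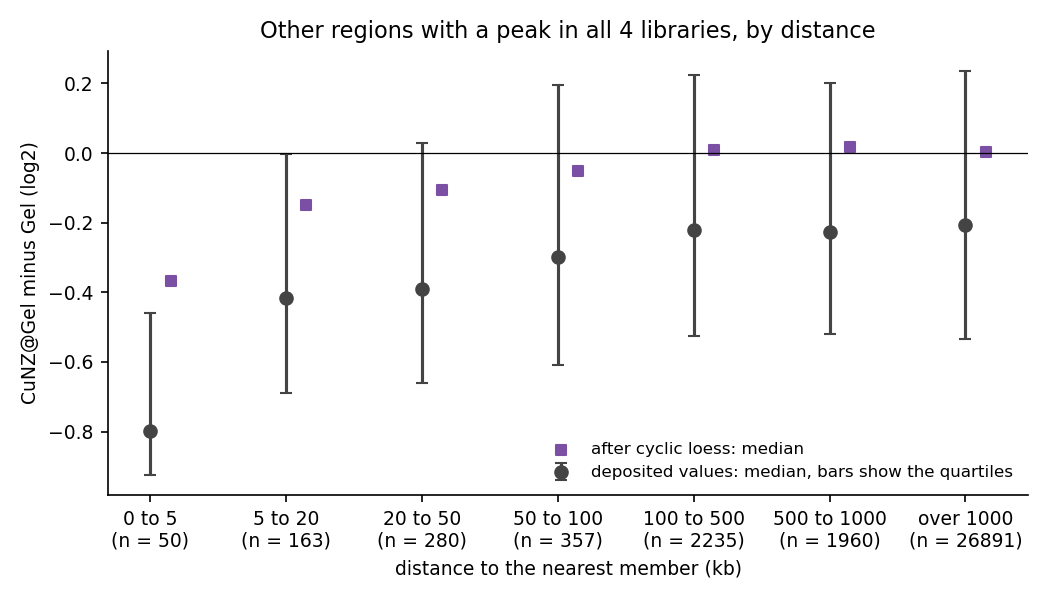
Median difference between the groups (vertical axis, CuNZ@Gel minus Gel, log2) of other regions with a peak in all 4 libraries, by distance to the nearest member (horizontal axis, kb, with the number of regions). Grey points with bars are medians and quartiles of deposited values and purple squares are medians after cyclic loess. The median is -0.80 within 5 kb and -0.21 beyond 1000 kb.

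The genes of members also held other regions. Of 585 such regions near 102 genes, 34.7% were called lower and 14.7% higher, against 21.7% and 21.3% of regions near all other genes. Their median difference was -0.20, and it was -0.22 after cyclic loess, against -0.0015 and -0.044 near all other genes. Among those with a peak in all 4 libraries, 148 of 255 (58.0%) were called lower, against 41.7% near all other genes, with a median of -0.43 against -0.21. After cyclic loess these medians were -0.18 and 0.003. The regions compared were not matched for Gel level.

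In Gel, the median peak widths of members lay between those of the other shared regions and those of regions of like Gel level. Their peaks were narrower in CuNZ@Gel. Their median region width was 877.5 bases, against 831 for other shared regions and 1032 for those of like Gel level. In 120 of the 124 (96.8%) each library had a single peak there, against 92.0% of the other shared regions and 88.0% of those of like level. The median peak width of members was 806.5 and 797 bases in the Gel lists and 446.5 and 565.5 in the CuNZ@Gel lists. In the Gel lists it was 702 and 701 over the other shared regions and 909 and 926.5 over those of like Gel level. In the CuNZ@Gel lists it was 521 and 613 over the others and 755 and 834 over those of like level. The ratio of mean peak width in CuNZ@Gel to Gel had a median of 0.687, against 0.851 for the other shared regions and 0.879 for those of like Gel level. The median distance between peak summits was 28.0 bases between Gel replicates, 37.0 between CuNZ@Gel replicates and 45.5 between groups, where the largest was 973.5. Between groups it was 38.5 over the other shared regions and 35.0 over those of like Gel level. Peak widths were called from the same reads that the rule used, so width is not independent of it.

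By the type of nearest gene, 75 members (60.5%) lay near protein-coding genes and 39 (31.5%) near long noncoding RNAs, against 68.5% and 22.6% of the other shared regions. Of the rest, 3 lay near small nuclear RNAs, 3 near small nucleolar RNAs, 1 near the microRNA gene Mir6957 and 3 near names not in the table. Chromosome 2 held 17 members (13.7%), against 8.20% of shared regions, and 4 of the 17 belong to the group near Gm35748 and Gm35813. Chromosome 6 held 1 member of 1682 shared regions, chromosome 19 held 1 of 1122 and the X chromosome none of 594.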

How the data were processed

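The submitters' processing notes list MACS2 2.2.8, Picard 2.27.5, SAMtools 1.17, Bowtie2 2.3.4.3 and fastp 0.23.1, with build GRCm39, roles not given in the sources used here. Per library, the authors deposited log2 values of 80929 regions under nearest-gene names. With the logarithm reversed, 100% of low values lay within 0.1 of whole reads for log2(RPM + 1). Deposited peak lists, one per library, hold a score, a fold enrichment (a ratio) and the -log10 of p and q as the authors' caller gave them. Their merge gave the same 80929 regions in the same order and so the coordinates, which are printed 1-based. In a check against the RefSeq table, 77101 of 77103 regions lay on the chromosome of their gene. The 48 scaffold regions, which hold no member, were left out of that check and of the distances to members, not of the fits. From tests, 4 rows lacking a gene name were left out.

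The low-value filter asked for 10 reads at median depth (0.710 RPM) in 2 libraries and 15 reads in total, which 77014 regions met. These were fitted with limma 3.58.1 (R 4.3.3) with an intensity trend and tested two-sided, with Benjamini-Hochberg adjusted p below 0.05 as the call; the script was checked on simulated data. Since the deposited values are log2, edgeR and DESeq2, planned for counts, were not run. SEs are limma's. Cyclic loess, size factors, library totals, background pileup, pseudocounts, filters and left-out libraries were tried as alternatives. Members and lists were chosen with earlier results of these data known. Named members were the 10 deepest falls with a gene symbol, the 10 highest in Gel, genes with 3 or more members, up to 4 per list, 3 on each side of the threshold, and the 3 lowest and 3 highest after cyclic loess. Of the 33 regions this gives, 1 is not reported here. The core motif TGACG was added after the data were seen.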

Additional observations from a re-analysis of the deposited data

How the results depend on the processing

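All 124 members stayed called lower by limma under each other setting that kept all 4 libraries. The 33 named members kept their direction under each of the 12 settings run for them. Members were chosen by this contrast, so nothing is read from this. Over all regions, lower calls under the settings with all 4 libraries ran from 9155 to 46695. Which regions meet the rule depended on the scaling: 31 regions after cyclic loess, 28 with library totals and 14932 with scaling to the background pileup, which moved the median of the other shared regions from -0.21 to -1.20, while library totals moved it to 0.05. With a pseudocount of 5 in place of 1 it was 52, at thresholds of -1 and -1.5 it was 551 and 36, and with a stricter overlap, in which the peaks of each library must cover at least 0.5 of the region, it was 68. Leaving out 1 library gave 124 to 177 regions, of which 99 to 114 were among the 124 members. Without CuNZ@Gel replicate 2 there were 177.

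Over all regions, 16855 were called lower and 16314 higher. Lower calls were 10612 after cyclic loess, 9155 with library totals and 46695 with the background pileup, and higher calls were 14457, 23142 and 3738. Leaving out 1 library gave 12098 to 16608 lower and 11530 to 14953 higher calls. With the lone library of a group, the spread is assumed to be that of the other group. The replicate block gave 17273 lower and 16697 higher calls, and 124 members called lower. Same-numbered libraries shared little deviation from their group means (correlation 0.016 over regions), so the numbers are not shown to pair the samples. The voom fit, added after the data were seen, gave 16442 and 16694. The cause of these shifts was not tested. Depth limits the shallow members most, with 25 reads at the lowest.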
